A study of Homo sapiens with 6 samples.

Results

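The genes described here encode the aminoacyl-tRNA synthetases of the cytosol and of the mitochondrion. Members were the rows of the deposited count table whose Ensembl identifier maps to 35 listed symbols, 19 for cytosolic and 16 for mitochondrial enzymes, out of 61859 genes in the table. RNA was sequenced from IOMM-Lee, an established cell line of malignant (grade 3) meningioma, in 2 groups of 3 libraries labelled as biological replicates. Normoxia libraries came from untreated cells, and hypoxia libraries from cells held at 0.2% oxygen for 48 h. Both groups were kept in DMEM with serum, penicillin and streptomycin at the same temperature and CO2. All libraries come from a single cell line, so p-values measure the spread between cultures of that line. Since only bulk RNA was measured, a change in the RNA per cell and a change in the mixture of cells cannot be told apart.

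An aminoacyl-tRNA synthetase joins an amino acid to its matching tRNA, which then carries it to the ribosome. The cytosolic enzymes serve the translation of nuclear genes, and a separate nuclear-encoded set is imported into mitochondria to serve the few proteins made from mitochondrial DNA. GARS1 and KARS1 are exceptions, since each gene gives both a cytosolic and a mitochondrial form. Several cytosolic enzymes sit together in the multisynthetase complex on the scaffold proteins AIMP1, AIMP2 and EEF1E1. Many cytosolic synthetase genes are known targets of ATF4, the transcription factor of the amino acid response.

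The libraries held 14685317 to 19554178 counts in normoxia and 10619864 to 18447885 in hypoxia. CPM below is the usual depth-scaled count of a gene (over TMM effective library totals). The limit that a count of 0 allows, 3 counts, was 0.133 to 0.316 CPM by library. The oxygen-response genes CA9, VEGFA, NDRG1 and PDK1 rose, 4 of 4, as a check of the labels. Of 8 meningioma and arachnoid markers, VIM, CRABP2, DSP and MUC1 rose, SSTR2 fell, and PTGDS, CDH1 and PGR were under the limit. Their summed level was 2701 to 3560 CPM in normoxia and 6107 to 7686 in hypoxia, most of it VIM. The 4 leukocyte markers summed to at most 1.12 CPM in any library. The 4 neural and glial markers summed to 23.0 to 27.6 CPM in normoxia and 11.9 to 15.1 in hypoxia, with SYT1 and OLIG2 lower; the part of such cells or programmes in the synthetase values was not tested. Hypoxia replicate 3 lay apart from the other hypoxia libraries on the second principal component (47.7 against -27.2 and -20.1), which held 7.83% of the variance.

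The synthetase genes split under hypoxia in both compartments. Of the 34 members tested, 8 rose, 17 fell and 9 were not called by edgeR's quasi-likelihood test at an adjusted p under 0.05. Across all 16411 genes tested, 62.2% were called, 31.2% as higher and 31.0% as lower, so being called is the usual state of a gene in these data. Among the 9409 genes with a mean of at least 10 CPM, where most members lie, 69.5% were called, 37.0% higher and 32.4% lower. The members' median log2 change was -0.38, against 0.01 for all genes tested. Groups did not overlap for 25 of the 34, against 67.9% of all genes. A called fall of at least 2-fold was seen in 8 of the 34, namely FARSB, LARS1, MARS1, VARS1, WARS1, MARS2, PARS2 and TARS2, against 17.7% of all genes. A called rise of that size was seen in 0 of the 34, against 16.3% of all genes.

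In the cytosolic set, 4 genes rose, 9 fell and 6 were not called, with a median log2 change of -0.09 and a range from -1.79 to 0.85. In the mitochondrial set, 15 of 16 genes could be tested. Of these 4 rose, 8 fell and 3 were not called, with a median of -0.55 and a range from -2.40 to 0.98. VARS2 did not pass the filter on low counts. With scaling by library totals alone the median of all genes shifted to -0.30, and the split over all genes moved from 5117 higher and 5091 lower to 3421 higher and 6905 lower. Under that scaling the cytosolic set had 3 higher and 11 lower and the mitochondrial set 1 higher and 10 lower, with medians of -0.40 and -0.86. The changes given here are therefore relative to the body of genes in each library.

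**Figure D1:**
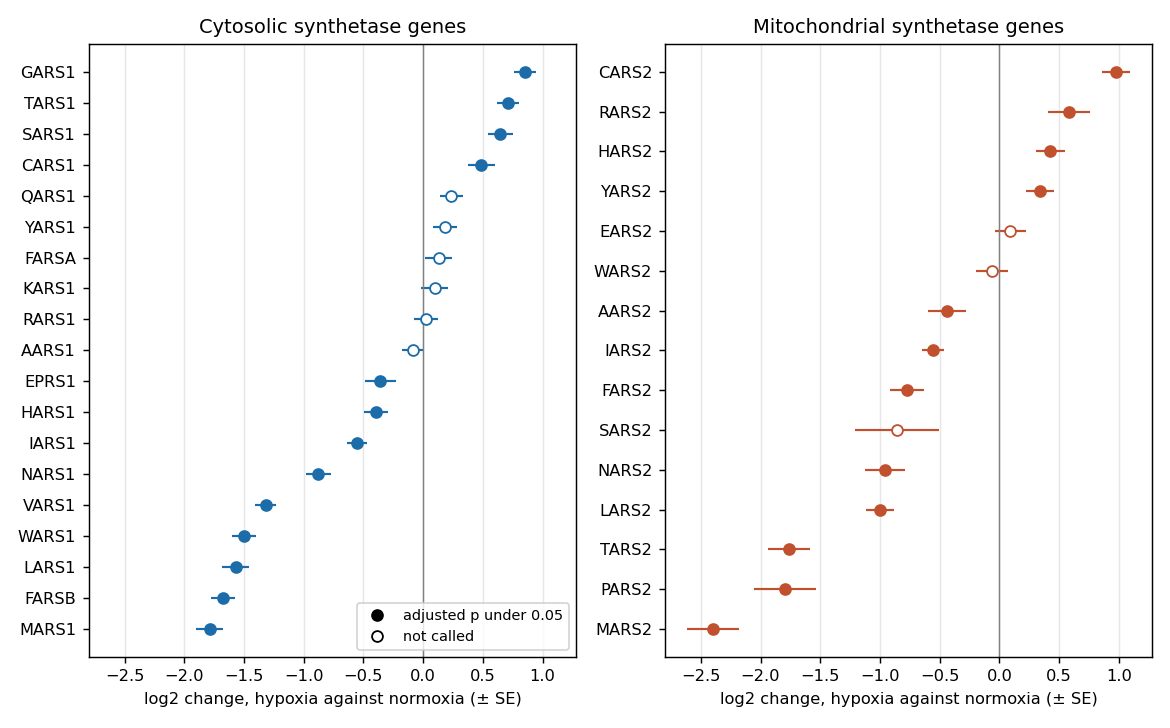
Log2 change in hypoxia against normoxia of each synthetase gene tested, with its SE as error bar, cytosolic and mitochondrial genes apart and filled points for an adjusted p under 0.05. The cytosolic genes run from -1.79 for MARS1 to 0.85 for GARS1, and the mitochondrial genes from -2.40 for MARS2 to 0.98 for CARS2.

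Levels can be compared between genes only per length of exon, taken here as the merged exons of all transcripts of a gene model. The length of the RNA expressed was not measured, so the order is approximate. In normoxia the median cytosolic synthetase lay at 35.6 CPM per kilobase and the median mitochondrial one at 6.07 CPM per kilobase. GARS1 (68.5), EPRS1 (60.8), RARS1 (60.04) and TARS1 (55.0) were highest of the cytosolic genes, and CARS1 was lowest at 8.68 CPM per kilobase. CARS1 also has the longest merged exons of the cytosolic genes, 10.04 kilobases. Before division by length its normoxia mean, 87.1 CPM, was above those of HARS1 (75.0) and FARSA (70.9). Of the mitochondrial genes IARS2 stood apart at 35.8 CPM per kilobase, followed by RARS2 at 18.8 and YARS2 at 11.7. SARS2 and VARS2 closed the order at 1.04 and 0.0501 CPM per kilobase.

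**Figure D2:**
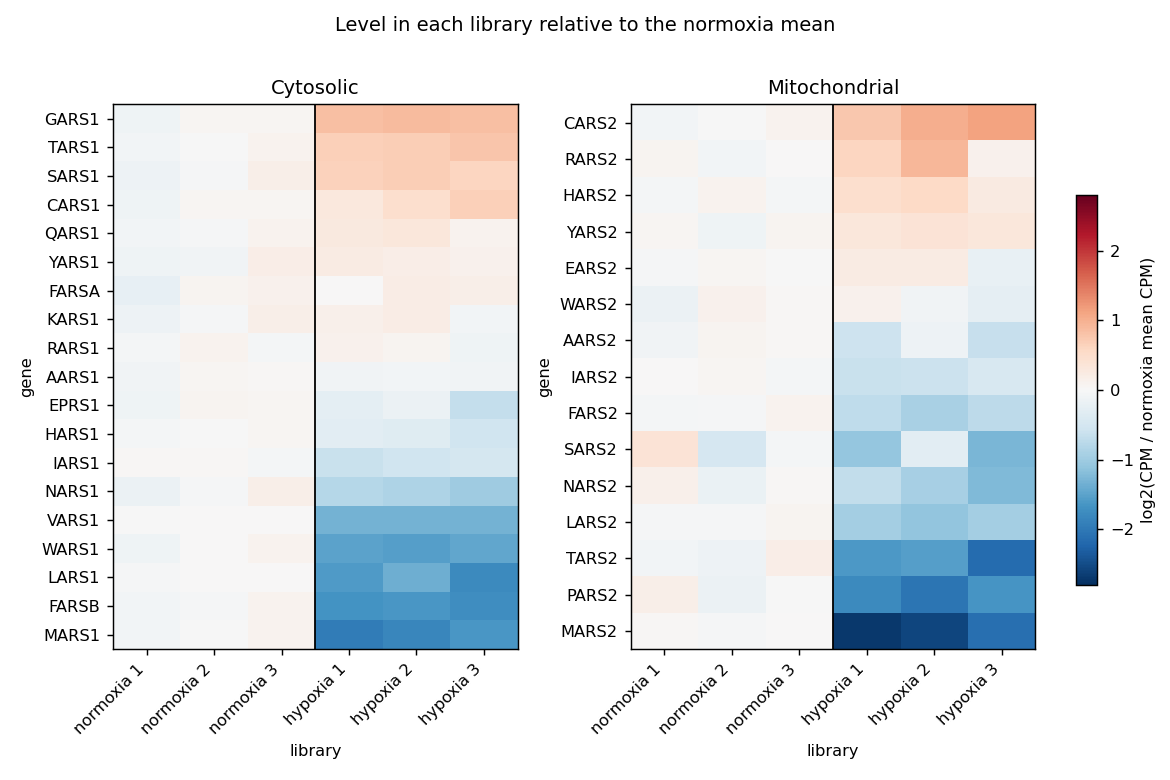
Level of each tested synthetase gene (rows) in each library (columns) as log2 of its CPM over its normoxia mean, red for higher and blue for lower, cytosolic genes left and mitochondrial genes right. GARS1, TARS1 and SARS1 are red in all 3 hypoxia libraries, MARS1 and MARS2 are the deepest blue of their sets by log2 change, and RARS2 in hypoxia replicate 3, at 52.3 CPM, is close to normoxia.

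The promoter sequences are shown because ATF4 RNA itself changed and because some cytosolic members carry its kind of element. RefSeq promoter windows on GRCh38.p14, from 250 bases before to 50 bases after the start of a gene, were matched for 30 of the 35 members, with 21 windows for 16 cytosolic genes and 18 for 14 mitochondrial genes. The motif searched was TGATGNAA on both strands, the core of an ATF4 and C/EBP composite element. At least 1 window with it was found for 7 of the 16 cytosolic genes and 1 of the 14 mitochondrial genes, against 4.46% of the 27305 genes with a window. By window it was in 7 of 21 and 1 of 18, against 3.62% of all 34943 windows. CARS1, GARS1 and TARS1 each have a further window without the motif. Each line below gives 56 bases around the match, 5′ to 3′ on the strand of the gene, with the match in capitals.
AARS1, chr16:70289662-70289717, minus strand: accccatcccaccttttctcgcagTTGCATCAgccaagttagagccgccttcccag
CARS1, chr11:3057394-3057449, minus strand: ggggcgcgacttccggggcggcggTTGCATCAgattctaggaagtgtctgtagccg
GARS1, chr7:30594821-30594876, plus strand: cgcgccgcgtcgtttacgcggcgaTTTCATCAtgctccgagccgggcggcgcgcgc
IARS1, chr9:92293679-92293734, minus strand: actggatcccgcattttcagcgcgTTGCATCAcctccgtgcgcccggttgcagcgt
MARS1, chr12:57488040-57488095, plus strand: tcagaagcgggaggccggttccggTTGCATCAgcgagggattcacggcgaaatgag
NARS1, chr18:57621791-57621846, minus strand: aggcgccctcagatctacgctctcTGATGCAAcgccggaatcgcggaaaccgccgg
TARS1, chr5:33440943-33440998, plus strand: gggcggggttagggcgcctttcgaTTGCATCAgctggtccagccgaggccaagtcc
YARS2, chr12:32756063-32756118, minus strand: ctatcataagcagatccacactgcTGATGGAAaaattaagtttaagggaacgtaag

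The match reads TTGCATCA on the strand of the gene in AARS1, CARS1, IARS1, MARS1 and TARS1. In CARS1 and MARS1 it spans the start site and in TARS1 it covers bases 3 to 10 after it, while in AARS1 it lies at -187 to -180 and in YARS2 at -197 to -190. Members with the motif moved in both directions. CARS1, GARS1, TARS1 and YARS2 rose, IARS1, MARS1 and NARS1 fell, and AARS1 was not called. The YARS2 call was lost in 6 of 14 alternatives. Of the 22 members with a window and no motif, 4 rose, 11 fell and 7 were not called. Of the 8 genes with the motif, 7 are cytosolic, so motif and compartment cannot be told apart in these counts. No window was matched for LARS1, VARS1 and AARS2, which fell, YARS1, which was not called, and VARS2, which was not tested. Over all genes tested, 31.2% were called higher and 31.0% lower. The short hypoxia cores ACGTG or GCGTG, either strand, were in at least 1 window of 26 of the 30 genes, against 52.4% of all genes. By window, GCGTG was in 76.2% of cytosolic and 83.3% of mitochondrial windows, against 36.5% of all windows. ACGTG was in 19.0% and 33.3%, against 21.4% of all windows. The part of base composition in these shares was not tested. A match describes the letters of a window and does not show binding.

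Among the cytosolic enzymes that rose, GARS1, the glycyl-tRNA synthetase of both compartments (chromosome 7, 30594681 to 30634033 on GRCh38), had the largest change. Its level was 263, 296 and 294 CPM in normoxia and 507, 523 and 508 CPM in hypoxia. All hypoxia libraries lay far above all normoxia libraries, with a change of 0.85 ± 0.09 in log2 (SE; edgeR adjusted p = 1.69e-05). TARS1, the cytosolic threonyl-tRNA synthetase (chromosome 5, 33440696 to 33469539), was at 298, 311 and 334 CPM in normoxia and 499, 509 and 536 CPM in hypoxia. The groups were again far apart, and the change was 0.71 ± 0.09 in log2 (SE; edgeR adjusted p = 6.31e-05). SARS1, which charges the tRNAs for serine and selenocysteine, was at 154, 166 and 193 CPM in normoxia and 269, 275 and 259 CPM in hypoxia. Its hypoxia libraries were nearly level and all above normoxia, with a change of 0.65 ± 0.10 in log2 (SE; edgeR adjusted p = 0.000258). CARS1, the cysteinyl-tRNA synthetase, was at 80.3, 90.0 and 91.0 CPM in normoxia and 106, 121 and 138 CPM in hypoxia. The groups did not overlap, and the change was 0.49 ± 0.11 in log2 (SE; edgeR adjusted p = 0.00329). Scaled by library totals alone it was 0.18 and not called (adjusted p = 0.21).

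The deepest cytosolic fall was that of MARS1, the methionyl-tRNA synthetase, whose product also charges the initiator tRNA (chromosome 12, 57475445 to 57517569). It was at 105, 110 and 118 CPM in normoxia and 28.5, 31.4 and 36.1 CPM in hypoxia. Every hypoxia library was well below every normoxia library, with a change of -1.79 ± 0.11 in log2 (SE; edgeR adjusted p = 4.28e-07), a 3.45-fold fall. MARS1 shares 355 exon bases, 5.05% of its own, with DDIT3 on the opposite strand. DDIT3 moved the other way, from 144, 90 and 115 counts in normoxia to 360, 261 and 540 in hypoxia. The strand setting of the counting is not given in the sources used here, so reads in the shared bases cannot be assigned with certainty.

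FARSB and FARSA encode the beta and alpha subunits of the cytosolic phenylalanyl-tRNA synthetase, and their RNAs parted. FARSB (chromosome 2, 222570536 to 222656337) was at 112, 114 and 126 CPM in normoxia and 36.6, 38.0 and 35.3 CPM in hypoxia, a change of -1.68 ± 0.10 in log2 (SE; edgeR adjusted p = 2.4e-07). FARSA was at 60.7, 75.1 and 76.9 CPM in normoxia and 71.1, 81.6 and 79.9 CPM in hypoxia. FARSA overlapped between the groups, with a change of 0.13 ± 0.12 in log2 (SE; edgeR adjusted p = 0.345). The ratio of FARSB to FARSA counts was 1.84, 1.51 and 1.63 in normoxia and 0.515, 0.466 and 0.441 in hypoxia. Each hypoxia library thus held fewer FARSB than FARSA counts and each normoxia library more. The exact two-sided permutation test gave p = 0.1, the smallest that 3 libraries against 3 can give.

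LARS1, the leucyl-tRNA synthetase and a known leucine sensor for mTORC1, was at 335, 344 and 343 CPM in normoxia and 113, 132 and 99.0 CPM in hypoxia. Its groups lay far apart, with a change of -1.57 ± 0.11 in log2 (SE; edgeR adjusted p = 9.21e-07). WARS1, the tryptophanyl-tRNA synthetase, was at 91.2, 98.9 and 106 CPM in normoxia and 34.8, 33.7 and 36.1 CPM in hypoxia. The change was -1.50 ± 0.10 in log2 (SE; edgeR adjusted p = 6.2e-07). WARS1 is also known as an interferon-induced gene. VARS1, the valyl-tRNA synthetase, was at 148, 151 and 151 CPM in normoxia and 59.8, 60.04 and 60.2 CPM in hypoxia, almost level within each group. Its change was -1.32 ± 0.09 in log2 (SE; edgeR adjusted p = 4.87e-07).

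Smaller falls were called for NARS1, IARS1, HARS1 and EPRS1. NARS1, for asparagine, was at 131, 143 and 163 CPM in normoxia and 84.4, 80.3 and 73.4 CPM in hypoxia (log2 change -0.88, SE 0.11, edgeR adjusted p = 4.49e-05). IARS1, for isoleucine, was at 388, 388 and 368 CPM in normoxia and 248, 260 and 271 CPM in hypoxia (log2 change -0.55, SE 0.09, edgeR adjusted p = 0.000258). In both genes all hypoxia libraries were below all normoxia libraries. EPRS1, a fused enzyme for glutamate and proline and the largest protein of the complex, was at 303, 349 and 343 CPM in normoxia and 273, 294 and 210 CPM in hypoxia. The lowest value was hypoxia replicate 3, and the change was -0.36 ± 0.13 in log2 (SE; edgeR adjusted p = 0.0299). Without normoxia replicate 2 or normoxia replicate 3 the call was lost, at adjusted p = 0.082 and 0.0722.

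The 6 cytosolic genes that were not called were AARS1, FARSA, KARS1, QARS1, RARS1 and YARS1, whose groups all overlapped. AARS1, for alanine, was at 143, 158 and 156 CPM in normoxia and 142, 145 and 143 CPM in hypoxia (log2 change -0.09, SE 0.09). RARS1, for arginine, was at 196, 221 and 199 CPM in normoxia and 223, 217 and 188 CPM in hypoxia (log2 change 0.03, SE 0.10). Both changes were smaller than or about as large as their SE. KARS1 had a log2 change of 0.10 (SE 0.11), QARS1 of 0.24 (SE 0.10, edgeR adjusted p = 0.0553) and YARS1 of 0.18 (SE 0.10). In QARS1, hypoxia replicate 3 at 184 CPM was the library that overlapped normoxia (164, 167 and 185 CPM), against 209 and 216 CPM in the other hypoxia libraries. Without that replicate QARS1 was called, at adjusted p = 0.00984.

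The multisynthetase complex enzymes did not move as a unit. Of the 7 synthetase genes of the complex, EPRS1, IARS1, LARS1 and MARS1 fell, KARS1, QARS1 and RARS1 were not called, and 0 rose. Of the scaffold genes, AIMP2 went from 14.6 ± 0.463 to 6.17 ± 0.950 CPM (SD, n = 3; log2 change -1.23) and EEF1E1 from 22.4 ± 1.54 to 7.90 ± 1.04 CPM (log2 change -1.49), and both falls were called. AIMP1 was at 65.4 ± 7.999 and 77.5 ± 5.51 CPM (SD, n = 3) and was not called (edgeR adjusted p = 0.082). By catalytic fold, 4 of 17 class I genes tested rose and 8 fell, and 4 of 16 class II genes rose and 8 fell. Over all genes tested, 31.2% were called higher and 31.0% lower. The fused EPRS1 was counted in neither class.

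Among the mitochondrial enzymes, CARS2, for cysteine (chromosome 13, 110641412 to 110713603), rose most. Its level was 34.4, 36.0 and 38.9 CPM in normoxia and 61.4, 73.6 and 79.9 CPM in hypoxia. The groups were far apart, with a change of 0.98 ± 0.12 in log2 (SE; edgeR adjusted p = 4.33e-05), a 1.97-fold rise. ING1, which shares 3.12% of the CARS2 exon bases on the opposite strand, went from 317, 203 and 243 counts in normoxia to 532, 597 and 1080 in hypoxia. RARS2, for arginine (chromosome 6, 87514378 to 87590003), was at 50.1, 45.2 and 48.2 CPM in normoxia and 72.4, 91.3 and 52.3 CPM in hypoxia. Hypoxia replicate 3 lay close to normoxia, and the change was 0.59 ± 0.17 in log2 (SE; edgeR adjusted p = 0.0145). Without hypoxia replicate 2 the RARS2 call was lost (adjusted p = 0.0582), and likewise without normoxia replicate 2 (adjusted p = 0.0602).

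HARS2 and YARS2 also rose, by less. HARS2, for histidine, was at 26.2, 29.04 and 25.98 CPM in normoxia and 37.2, 39.9 and 32.3 CPM in hypoxia (log2 change 0.43, SE 0.12, edgeR adjusted p = 0.0102). YARS2, for tyrosine, was at 26.05, 23.1 and 26.6 CPM in normoxia and 31.3, 33.1 and 31.5 CPM in hypoxia (log2 change 0.34, SE 0.11, edgeR adjusted p = 0.0239). Their groups did not overlap, but both calls depended on single libraries. Without normoxia replicate 1 the adjusted p was 0.0561 for HARS2 and 0.0716 for YARS2, and for YARS2 it was 0.159 without normoxia replicate 2 and 0.0814 without hypoxia replicate 2. With library totals alone CARS2 was the only mitochondrial gene called higher.

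The largest fall of any member was that of MARS2, the mitochondrial methionyl-tRNA synthetase (chromosome 2, 197705369 to 197708387). Its level was 11.2, 10.6 and 11.0 CPM in normoxia and 1.69, 1.83 and 2.53 CPM in hypoxia, from 252, 173 and 188 counts and 16, 18 and 42 counts. The groups were widely separated, with a change of -2.40 ± 0.22 in log2 (SE; edgeR adjusted p = 4.99e-06), a 5.27-fold fall. PARS2, for proline, was at 6.08, 4.84 and 5.43 CPM in normoxia and 1.58, 1.33 and 1.75 CPM in hypoxia. The change was -1.79 ± 0.26 in log2 (SE; edgeR adjusted p = 0.000132), on 13 to 29 counts per hypoxia library. TARS2, for threonine (chromosome 1, 150487364 to 150507609), was at 36.3, 34.4 and 43.6 CPM in normoxia and 12.4, 13.1 and 8.55 CPM in hypoxia. Its change was -1.76 ± 0.18 in log2 (SE; edgeR adjusted p = 1.03e-05).

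LARS2, NARS2 and FARS2, for leucine, asparagine and phenylalanine, fell by less. LARS2 was at 33.3, 33.6 and 36.0 CPM in normoxia and 17.7, 15.9 and 17.8 CPM in hypoxia, with a change of -0.997 ± 0.12 in log2 (SE; edgeR adjusted p = 3.45e-05). NARS2 went from 22.4 ± 2.61 to 11.7 ± 2.15 CPM and FARS2 from 17.6 ± 1.03 to 10.2 ± 0.753 CPM (SD, n = 3), with log2 changes of -0.95 and -0.78. In each of the 3 genes the groups did not overlap. IARS2, the most abundant mitochondrial member, was at 149, 154 and 143 CPM in normoxia and 96.9, 97.96 and 110 CPM in hypoxia. Its change was -0.55 ± 0.09 in log2 (SE; edgeR adjusted p = 0.000385). AARS2, for alanine, was at 19.9, 22.5 and 22.0 CPM in normoxia and 14.4, 19.5 and 13.7 CPM in hypoxia. The highest hypoxia library lay just under the lowest normoxia library, and the change was -0.44 ± 0.16 in log2 (SE; edgeR adjusted p = 0.0317). Without normoxia replicate 2, normoxia replicate 3 or hypoxia replicate 1 the AARS2 call was lost, at adjusted p = 0.085, 0.0707 and 0.0757.

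Of the remaining mitochondrial genes, EARS2, for glutamate, had a log2 change of 0.09 (SE 0.13) and WARS2, for tryptophan, of -0.07 (SE 0.13), and both overlapped between the groups. SARS2, for serine, was at 4.39, 2.45 and 3.27 CPM in normoxia and 1.58, 2.75 and 1.38 CPM in hypoxia. Hypoxia replicate 2 lay within the normoxia range, and the log2 change of -0.86 (SE 0.35) was not called (edgeR adjusted p = 0.0525). SARS2 was called lower in 6 of 14 alternatives, among them the fits without hypoxia replicate 2 (adjusted p = 0.0185) and without normoxia replicate 2 (0.0409). SARS2 shares 46.2% of its exon bases with a same-strand gene model that had 0 counts, and how reads that match both models were counted is not given in the sources used here. VARS2 had 19, 6 and 1 counts in normoxia and 1, 0 and 9 in hypoxia. It shares 22.0% of its exon bases with GTF2H4 on the same strand. No direction can be read from VARS2 at this depth.

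Added up, the members took up less of each library in hypoxia. Cytosolic members held 0.385%, 0.397% and 0.394% of all counts in normoxia and 0.288%, 0.319% and 0.291% in hypoxia. Mitochondrial members held 0.0587%, 0.0567% and 0.0554% in normoxia and 0.0395%, 0.0453% and 0.0392% in hypoxia. Neither sum overlapped between the groups on this scale. On the TMM scale the cytosolic sum was 3340, 3568 and 3690 CPM in normoxia and 3333, 3449 and 3231 CPM in hypoxia, which overlapped. The mitochondrial sum was 509, 510 and 519 CPM in normoxia and 457, 490 and 435 CPM in hypoxia, which did not. RNA encoded by the mitochondrial genome was also a smaller share of counts in hypoxia, 3.05%, 2.28% and 2.05% against 6.89%, 7.29% and 6.42% in normoxia, and its part in the percentages was not tested.

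Within the cytosolic sum, the mean share of GARS1 went from 8.05% to 15.4% and that of TARS1 from 8.90% to 15.4%. LARS1 went from 9.65% to 3.44%, and IARS1, the largest share in normoxia, from 10.8% to 7.78%. Within the mitochondrial sum, CARS2 went from 7.11% to 15.6% and RARS2 from 9.32% to 15.6%. TARS2 went from 7.43% to 2.47%, and IARS2 kept the largest share, at 29.03% and 22.0%. The ratio of the cytosolic to the mitochondrial sum was 6.56, 6.99 and 7.10 in normoxia and 7.30, 7.04 and 7.43 in hypoxia, which overlapped.

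The compartments were then compared amino acid by amino acid, as the ratio of cytosolic to mitochondrial counts within a library, which needs no scaling. Of 16 such ratios, 13 did not overlap between the groups, 6 higher and 7 lower in hypoxia. Among single genes, 67.9% of all genes tested did not overlap, and no such share was computed for ratios of other gene pairs. EPRS1 and FARS2 recur among the ratios, which are therefore not independent. Each of the 13 had p = 0.1 in an exact two-sided permutation test, the smallest that 3 against 3 allows, and adjusted p = 0.123 over the 16, so none can pass a threshold of 0.05 in this design. The widest shift was for threonine. TARS1 to TARS2 was 8.19, 9.02 and 7.67 in normoxia and 40.1, 38.7 and 62.7 in hypoxia, a difference of 2.47 in mean log2 ratio. Both genes moved, in opposite directions.

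For tryptophan the ratio turned the other way. WARS1 to WARS2 was 3.22, 2.88 and 3.28 in normoxia and 1.003, 1.14 and 1.35 in hypoxia, so that the counts of the cytosolic gene came close to those of the mitochondrial gene. Per kilobase of exon, mean levels in normoxia were 15.5 CPM for WARS1 and 8.24 CPM for WARS2. In hypoxia they were 5.48 and 7.89 CPM per kilobase, so the cytosolic gene was the lower on that scale only. That order rests on merged exon lengths of 6.36 kilobases for WARS1 and 3.85 for WARS2. The length of the RNA expressed was not measured. Cysteine, leucine and arginine also moved toward the mitochondrial gene, by -0.49, -0.58 and -0.53 in mean log2 ratio, while serine (1.501), methionine (0.66) and alanine (0.36) moved toward the cytosolic gene. The ratio of EPRS1 to PARS2 (proline) rose by 1.45 in mean log2 and that of EPRS1 to EARS2 (glutamate) changed by -0.45, so the same cytosolic gene stood on both sides. Phenylalanine depended on the subunit, at 0.91 for FARSA and -0.89 for FARSB, each against FARS2. For isoleucine the ratio was 2.59, 2.52 and 2.57 in normoxia and 2.56, 2.65 and 2.47 in hypoxia, and IARS1 and IARS2 had each fallen with a log2 change of -0.55. Asparagine (0.08) and tyrosine (-0.15) overlapped too. Valine was left out because VARS2 had a count of 0.

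**Figure D3:**
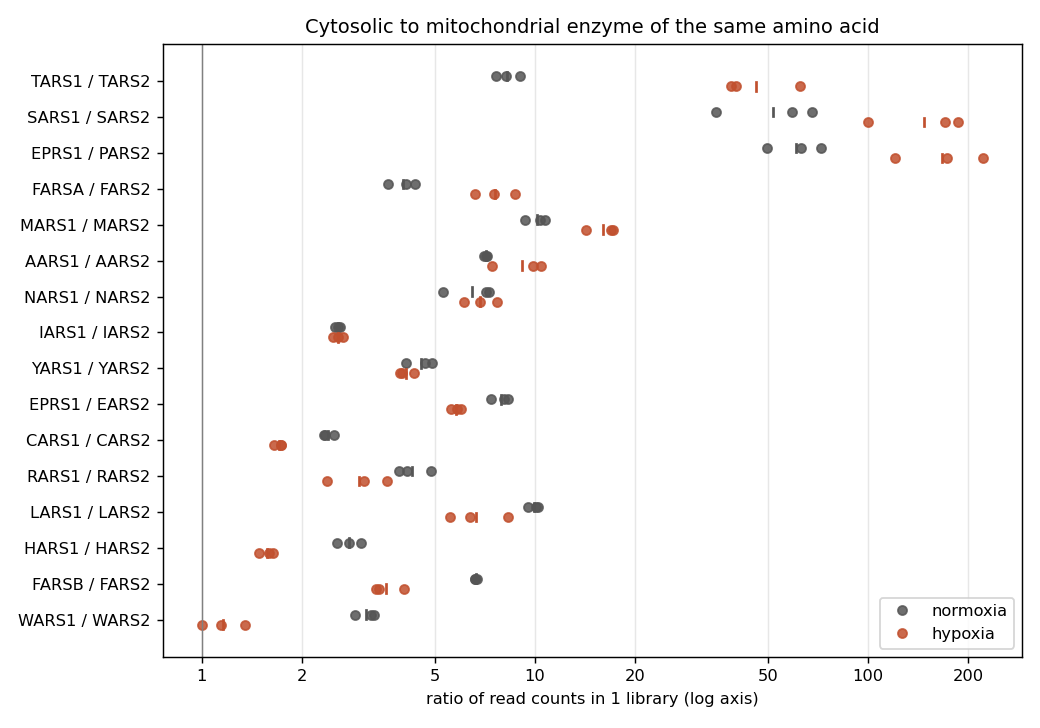
Cytosolic to mitochondrial count ratio for each amino acid in every library, on a log axis, as 1 point per library, grey for normoxia and orange for hypoxia, with a tick at the mean of each group. The threonine ratio moves from 7.67 to 9.02 up to 38.7 to 62.7, the tryptophan ratio moves down to 1.003 to 1.35, and the isoleucine points lie on top of each other.

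HARS1 and HARS2, for histidine, are neighbours that are read in opposite directions from adjacent start sites on chromosome 5, and they moved apart. HARS1 was at 72.6, 74.2 and 78.1 CPM in normoxia and 60.9, 59.3 and 51.3 CPM in hypoxia, with a change of -0.39 ± 0.10 in log2 (SE; edgeR adjusted p = 0.00639). HARS2 rose, as given above. The ratio of HARS1 to HARS2 was 2.77, 2.55 and 3.00 in normoxia and 1.64, 1.49 and 1.59 in hypoxia. Hypoxia libraries were nearly level and all below normoxia, a difference of -0.82 in mean log2 ratio. The gene models share 437 exon bases, 5.57% of HARS1 and 11.7% of HARS2. The HARS2 call was lost under library totals alone (adjusted p = 0.453), where the ratio does not change. The RefSeq start sites lie at 140691370 for HARS1 on the minus strand and 140691455 for HARS2 on the plus strand of GRCh38.p14. The sequence shows this region on the plus strand, with the 84 bases between the start sites in capitals and 60.8% GC over the whole stretch.
HARS1 and HARS2, chr5:140691311-140691504: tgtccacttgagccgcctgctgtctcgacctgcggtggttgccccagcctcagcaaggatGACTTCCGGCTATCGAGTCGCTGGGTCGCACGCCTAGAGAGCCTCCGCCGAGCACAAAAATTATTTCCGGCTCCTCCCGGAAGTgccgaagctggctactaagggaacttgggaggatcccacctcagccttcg

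Mitochondria lack a glutaminyl-tRNA synthetase, and GATB, GATC and QRSL1 form the amidotransferase that makes glutaminyl-tRNA after EARS2 has charged it with glutamate. QRSL1 fell (log2 change -0.55), while GATB (-0.09) and GATC (-0.05) were not called. MTFMT, which formylates the methionyl-tRNA made by MARS2, fell from 20.9 ± 3.52 to 7.37 ± 0.411 CPM (SD, n = 3; log2 change -1.51). Of the 3 genes that remove wrongly charged amino acids, DTD2 fell (log2 change -2.27) and DTD1 and AARSD1 were not called. In the selenocysteine route, which starts from serine joined to its tRNA by SARS1, SEPHS2 (-1.63), SEPSECS (-0.83) and PSTK (-0.62) fell. EEFSEC was called higher (0.36), but the call was lost in 9 of 14 alternatives, with a log2 change of 0.05 under library totals alone, adjusted p = 0.0643 with the replicate block, and in 5 of the 6 fits that left out a library, of which only that without hypoxia replicate 2 kept it. The PSTK call was lost without normoxia replicate 3 (adjusted p = 0.0786) or hypoxia replicate 2 (0.0533).

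Of the factors that bring charged tRNA to the ribosome, 3 of 5 tested genes rose and 1 fell. The shares over all genes tested were 31.2% higher and 31.0% lower. EEF1A1, at 18120 ± 978 CPM in normoxia (SD, n = 3), rose with a log2 change of 0.41 and EEF1D with 0.77, while the mitochondrial factor TUFM fell with -0.41. The EEF1A1 call was lost with the replicate block (adjusted p = 0.0657), with library totals alone (log2 change 0.10, adjusted p = 0.409) and without normoxia replicate 1 (0.0805) or normoxia replicate 2 (0.0903), and that of TUFM without normoxia replicate 3 (0.081) or hypoxia replicate 3 (0.0646). EEF1A2 was called higher from 7, 2 and 1 counts in normoxia to 21, 37 and 67 in hypoxia. EEF1G is listed at 0 in all libraries and TSFM did not pass the filter. Among 12 genes of tRNA maturation and export, 8 fell and 2 rose, against the same shares over all genes. The largest falls were those of ELAC1 (log2 change -3.52) and TSEN15 (-3.14), which trim tRNA ends and cut out tRNA introns. TSEN34, which encodes a catalytic subunit of the same splicing endonuclease as TSEN15, rose (1.27), and so did the export factor XPOT (0.58).

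The amino acid response list had 5 of 8 genes higher and 2 lower, against 31.2% and 31.0% of all genes tested. ATF4 rose from 249 ± 57.5 to 1383 ± 108 CPM (SD, n = 3), a change of 2.47 ± 0.16 in log2 (SE; edgeR adjusted p = 5.85e-07). DDIT3 (2.38), SESN2 (1.06) and TRIB3 (0.57) rose too, TRIB3 not with library totals alone (0.25, adjusted p = 0.171). ASNS was called higher (0.57), but the call was lost in 9 of 14 alternatives, with a log2 change of 0.255 under library totals alone (adjusted p = 0.34), adjusted p = 0.0589 with the replicate block, and in 5 of the 6 fits that left out a library, of which only that without hypoxia replicate 3 kept it. EIF2AK4, the kinase that senses uncharged tRNA, and ATF5 fell, by 0.47 and 0.88 on the log2 scale. CHAC1 was not called. Of 22 mitochondrial tRNA genes, 13 could be tested, of which 8 were lower, 5 were not called and 0 were higher. The share called was 61.5%, all of it lower, against 62.2% of all genes tested, 31.2% higher and 31.0% lower. Several of these calls rest on few counts. MT-TK had 13, 13 and 11 counts in normoxia and 0 in each hypoxia library. MT-TL2 had 20, 24 and 13 counts in normoxia and 1, 0 and 0 in hypoxia. The MT-TH call was lost with the replicate block (adjusted p = 0.0542) and without normoxia replicate 1, normoxia replicate 2, hypoxia replicate 2 or hypoxia replicate 3 (0.053 to 0.107). MT-TC (cysteine) went from 92.8 ± 29.3 to 3.13 ± 0.700 CPM and MT-TN (asparagine) from 53.5 ± 17.5 to 3.90 ± 1.69 CPM (SD, n = 3), while MT-TP (proline) was at 126 ± 21.4 and 116 ± 23.8 CPM. Reads from mature tRNAs and from uncut precursors cannot be told apart in these counts.

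**Figure D4:**
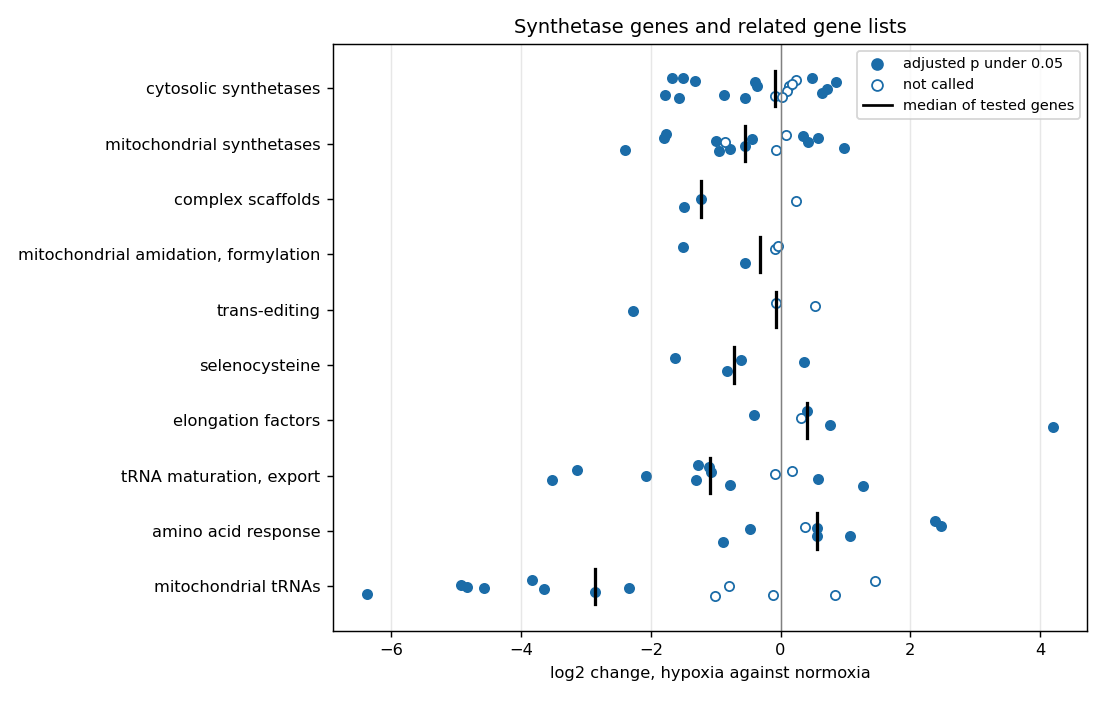
Log2 change in hypoxia against normoxia of each tested gene in the synthetase sets and in 8 related lists, filled for an adjusted p under 0.05, with a bar at the median of each list. The amino acid response genes ATF4 and DDIT3 lie at 2.47 and 2.38, while the mitochondrial tRNAs and the maturation genes extend furthest to the left.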

How the data were processed

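Total RNA was sequenced from libraries of the NEBNext Ultra II type, per the labels' protocols. Named in the submitters' processing notes are the build GRCh38.p13, featureCounts 2.0.1 and DESeq2 1.37.5, besides HISAT2 2.1.0 and fastp 0.20.1. The strand setting is not given in the sources used here. The deposited values are raw read counts for each Ensembl gene. Of its 61860 lines, 1 names no gene, holds 0.00243% of counts and was left out. A second deposited table of normalized values, whose cells run together, was not used.

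Symbols matched 61756 genes, and all 35 members. Coordinates and exon lengths, merged over all transcripts of a gene, are from GENCODE 29 on GRCh38. In edgeR 4.0.16 (R 4.3.3), low counts were removed by filterByExpr (group, count of 10, total of 15), followed by TMM scaling and the robust quasi-likelihood F test of hypoxia against normoxia over all 6 libraries. Adjusted p-values are Benjamini-Hochberg values over all 16411 tested genes, called below 0.05. Each SE was taken as the absolute log2 change divided by the root of F. Biological variation between replicates was 15.3%. No replicate pair agreed within counting error (5.75 to 39.3 chi-square units a gene). The script was tested on simulated data.

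Alternatives used DESeq2 1.42.0, limma 3.58.1, other scalings, other filters, a replicate block and leaving out each library. All 35 members are named; of the related lists, called genes and the largest changes are named, and 1 list is not reported here. Members and lists were chosen with earlier results of these data known. The share called among genes with a mean of at least 10 CPM was added after the data were seen.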

Additional observations from a re-analysis of the deposited data

How the results depend on the processing

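Of the 25 called members, 19 kept direction and call in all 14 alternatives run (CARS2, GARS1, SARS1 and TARS1 higher, 15 lower). The call was lost in at least 1 alternative for AARS2, CARS1, EPRS1, HARS2, RARS2 and YARS2. The number of mitochondrial genes called higher, 4, was 1 with library totals alone and 2 with no filter on low counts, and ranged from 2 to 4 when 1 library was left out. It was 2 without normoxia replicate 1, without normoxia replicate 2 and without hypoxia replicate 2. With library totals alone HARS2 (adjusted p = 0.453), RARS2 (0.201) and YARS2 (0.848) lost their call in edgeR's test, which goes with the shift of the median of all genes to -0.30. With no filter HARS2 (0.118) and YARS2 (0.321) lost it, and the cause was not tested.

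Calls were gained for SARS2 in 6 alternatives (upper-quartile scaling 0.0451, limma-voom 0.0443, no filter 0.0169, library totals 0.0143 and the fits without normoxia replicate 2 or hypoxia replicate 2). QARS1 was called in 2 (stricter filter 0.045, without hypoxia replicate 3), and AARS1 and WARS2 were called lower with library totals alone (0.00327 and 0.0247).

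Only genes that were not called changed sign. With library totals alone the log2 change was -0.17 for FARSA, -0.21 for KARS1, -0.071 for QARS1, -0.29 for RARS1 (adjusted p = 0.0331), -0.12 for YARS1 and -0.22 for EARS2. With no filter it was -0.0324 for KARS1, -0.101 for RARS1 and -0.0367 for EARS2. RARS1 was at -0.0381 with upper-quartile scaling. With 1 library left out it ranged from -0.0363 to 0.0692, below 0 without normoxia replicate 1, normoxia replicate 3, hypoxia replicate 1 and hypoxia replicate 2.

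With the replicate number as a block, 4 cytosolic genes were higher and 9 lower, 4 mitochondrial genes higher and 8 lower, and 4862 genes higher and 4906 lower over all genes. No member's call changed, while the related genes EEFSEC (adjusted p = 0.0643), EEF1A1 (0.0657), ASNS (0.0589) and MT-TH (0.0542) lost theirs. Libraries with the same number did not deviate together (correlations -0.106, 0.0864 and -0.0378), so the numbers were not taken as pairs. Of the 38 related genes called, 7 lost the call in at least 1 alternative: PSTK, EEFSEC, EEF1A1, TUFM, TRIB3, ASNS and MT-TH. With 3 libraries a group, depth limits MARS2, PARS2, SARS2 and VARS2 most, whose hypoxia libraries held at most 42 counts each.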
